A study of Mus musculus with 24 samples.

Results

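The unfolded protein response and the integrated stress response were followed here through 34 genes in cells from tumour stroma. The list comprised 5 sensors and transcription factors, 13 genes of protein folding in the endoplasmic reticulum (ER), 6 genes of ER-associated degradation, and 10 genes known as targets of the transcription factor Atf4. The members were chosen by name, with earlier results of these data known, so that counts of calls among them are descriptions. Each was read from 1 probe set, a group of array probes for 1 transcript. Among the probe sets that name 1 gene only, it was the one with the highest mean over all 24 arrays. Of the 34 members 33 were measured among 17097 genes. Mthfd2, a mitochondrial folate enzyme, was read only by 2 probe sets that also name another gene and was left out. Pdia3, an ER disulfide isomerase, had a mean log2 level of 5.87, under the floor of 6.27 set for dim probe sets, so that 32 members were tested among 11844 kept genes.

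The unfolded protein response starts at the ER membrane, where Ern1 (IRE1α), Eif2ak3 (PERK) and Atf6 sense unfolded protein. Ern1 splices the mRNA of Xbp1, and spliced Xbp1 and cleaved Atf6 switch on chaperones, folding enzymes and the machinery that returns misfolded protein to the cytosol for degradation. Eif2ak3 phosphorylates the translation factor eIF2α, which lowers protein synthesis while favouring translation of Atf4; other kinases that sense amino acid shortage, haem or viral RNA reach the same point, hence the name integrated stress response. Atf4 switches on amino acid synthesis and transport, and with stronger stress Ddit3 (CHOP), Chac1 and Trib3. Palmitic acid, a saturated fatty acid, is known to activate these pathways in many cell types. Splicing, cleavage and phosphorylation are not measured by these arrays, which give mRNA levels only.

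SCC25, a human oral squamous carcinoma line, was grown orthotopically in immunodeficient NSG (NOD-SCIDγ) mice, and mouse RNA was measured in stromal cells labelled as the neural fraction. The human tumour cells carried a non-targeting hairpin (PLKO), 1 of 2 hairpins against EGR2 (shEGR2_40.9 and shEGR2_38.9) or 1 hairpin against GAL (shGAL), so that no hairpin was expressed in the mouse cells measured; silencing in the human cells is not read by these arrays, and binding of human transcripts to the mouse probes was not tested. EGR2 is a transcription factor known for Schwann cell myelination and GAL encodes the neuropeptide galanin. Each hairpin was combined with a control diet and a diet rich in palmitic acid (PA-rich), giving 8 groups of 3 arrays. The series calls the 3 arrays of a group technical replicates, and whether they came from 1 animal or several is not stated, so p-values measure only the spread between these arrays. The animals' age and the feeding time are not given in the sources used here.

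The labelled cell type was read against marker lists. Of 7 Schwann cell markers read by a probe set of 1 gene, 5 were above the floor (Sox10, Mbp, Pmp22, Erbb3 and Ngfr), and S100b and Foxd3 were dim. Of 10 neuron markers 6 were dim, Snap25 and Nefl among them, whereas all 14 measured keratinocyte markers and all 15 endothelial markers were above the floor. The kept markers had a mean log2 level in the PLKO control group of 11.5 for keratinocytes, 9.03 for Schwann cells, 8.34 for endothelium and 7.72 for neurons. The label of a neural fraction is therefore not established by these markers. One array stood apart: the third array of shEGR2_38.9 on the control diet had a mean correlation of 0.978 with its own group against 0.987 to 0.997 in the 23 others, and its Gapdh probes read 0.76 higher (log2) for the 3′ than for the 5′ end, where the others gave -0.12 to 0.08. Results are therefore given with and without this array where it matters.

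To show what the 2 regulatory branches read in DNA, the RefSeq promoters (build GRCm38.p6, the 250 bases before the annotated start, both strands) were searched for 3 motifs; 31 of the 34 members had an entry there. The ER stress element, CCAAT and CCACG with 9 bases of any kind between them, is bound by Atf6 and Xbp1 together with NF-Y. It was found in 9 of 17 folding and degradation members (52.9%), in 0 of 10 Atf4 target members and in 35 of all 27025 promoters (0.13%). The composite site read by Atf4 with a C/EBP partner, TGATGNAA, was found in 2 of 10 Atf4 target members (20%), Asns and Chac1, in Herpud1 among the 17 folding and degradation members (5.88%), and in 3.91% of all promoters. The Xbp1 site TGACGTGG was in 0 members and in 0.603% of all promoters. No motif overlapped another in the windows below, in which capitals mark the match and each sequence runs 5′ to 3′ along the gene. The first 3 windows carry the ER stress element of a chaperone whose level moved (Hspa5), of one that passed no test with all arrays (Hsp90b1, which has 2 matches) and of the ubiquitin ligase Syvn1; the last 3 carry the Atf4 site.
Hspa5: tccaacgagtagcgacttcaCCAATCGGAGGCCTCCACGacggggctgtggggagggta
Hsp90b1: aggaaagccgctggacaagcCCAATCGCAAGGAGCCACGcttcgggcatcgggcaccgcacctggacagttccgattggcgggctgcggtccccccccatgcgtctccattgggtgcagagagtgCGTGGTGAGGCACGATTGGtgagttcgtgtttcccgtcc
Syvn1: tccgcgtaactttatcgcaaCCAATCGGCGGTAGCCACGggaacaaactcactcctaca
Asns: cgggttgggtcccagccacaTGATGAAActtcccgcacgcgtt
Chac1: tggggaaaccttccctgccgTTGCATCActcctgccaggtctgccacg
Herpud1: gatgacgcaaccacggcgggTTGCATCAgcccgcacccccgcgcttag
The windows lie at chr2:34772005-34772063 (plus strand), chr10:86705513-86705676 (minus), chr19:6046512-6046570 (plus), chr6:7693210-7693252 (minus), chr2:119351029-119351076 (plus) and chr8:94386297-94386344 (plus), all upstream of the first exon. The other members with the element were Calr, Canx, Creld2, Dnajc3, Pdia6 and Derl3. Of the 9 members with the element 2 (Hspa5 and Syvn1) passed a test in at least 1 comparison, and of the 7 kept folding and degradation members with a promoter but without it 4 did (Sdf2l1, Pdia4, Edem1 and Sel1l), beside 45.5% of all 11844 genes. Without the array that stood apart, Hsp90b1, Creld2 and Dnajc3, which have the element, and Dnajb9 and Herpud1, which lack it, also passed a test. The share of all genes past at least 1 comparison without that array was not computed.

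The members moved little as a whole, and unevenly within each branch. The widest range between group means was 1.30 on the log2 scale for Chac1, followed by 0.99 for Phgdh and 0.94 for Eif2ak3, and the narrowest among tested members was 0.11 for Canx. As a level per array (the mean over genes of the log2 level minus the 24-array mean of the gene), the 18 folding and degradation genes had group means between -0.07 (shGAL, control diet) and 0.08 (shEGR2_40.9, PA-rich diet). The 9 Atf4 targets lay between -0.09 (shEGR2_38.9, control diet) and 0.07 (shEGR2_40.9, PA-rich diet). The 3 arrays of the lowest group read -0.0065, 0.021 and -0.27, the last being the array that stood apart. The averages of both sets hide opposite movements, which the map of group means shows gene by gene. In 10 comparisons, 20 of the 32 members passed an adjusted p of 0.05 at least once, against 45.5% of all genes, with 46 calls in all, of which 1 exceeded 1 on the log2 scale; the 12 never called were Atf4, Hsp90b1, Dnajb9, Dnajb11, Dnajc3, Calr, Canx, Pdia6, Creld2, Herpud1, Derl3 and Trib3.

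**Figure D1:**
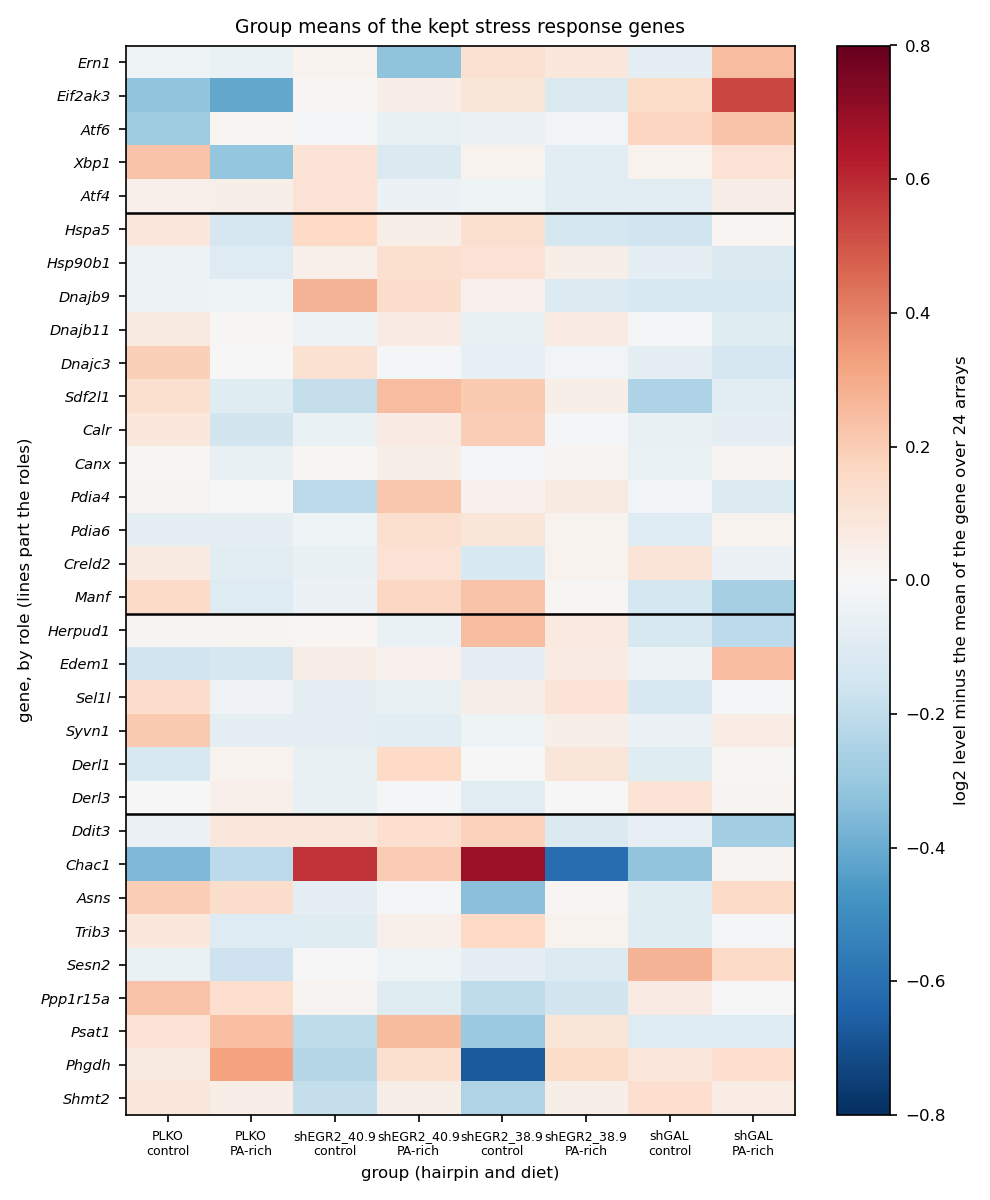
Group means of the 32 tested members (rows, ordered by role) in the 8 groups of hairpin and diet (columns), as the log2 level minus the mean of the gene over 24 arrays; red is higher and blue lower. Chac1 was highest and Phgdh lowest with shEGR2_38.9 on the control diet, Eif2ak3 was highest with shGAL on the PA-rich diet, and most chaperones stayed near 0.

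The diet comparison asks what the PA-rich diet changed under each hairpin. With PLKO 1 of 32 members changed, the fall of Xbp1, against 0.371% of all genes higher and 0.811% lower, and 0 members rose. At an unadjusted p under 0.05 limma gave 2 higher and 9 lower. The shares of all genes are for the adjusted p, and none was counted for the unadjusted p, here or below. With shEGR2_40.9 4 members rose (Sdf2l1, Pdia4, Derl1 and Psat1) and 1 fell (Ern1), against 3.73% and 5.22% of all genes. With shEGR2_38.9 4 rose (Asns, Psat1, Phgdh and Shmt2) and 4 fell (Chac1, Ddit3, Hspa5 and Manf), against 13.8% and 8.3%. With shGAL 1 rose (Eif2ak3), against 1.33% of genes higher and 0.608% lower, and 0 fell, with 7 higher and 1 lower at an unadjusted p under 0.05. With shEGR2_38.9 the share of members called in each direction, 12.5%, was near the background.

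**Figure D2:**
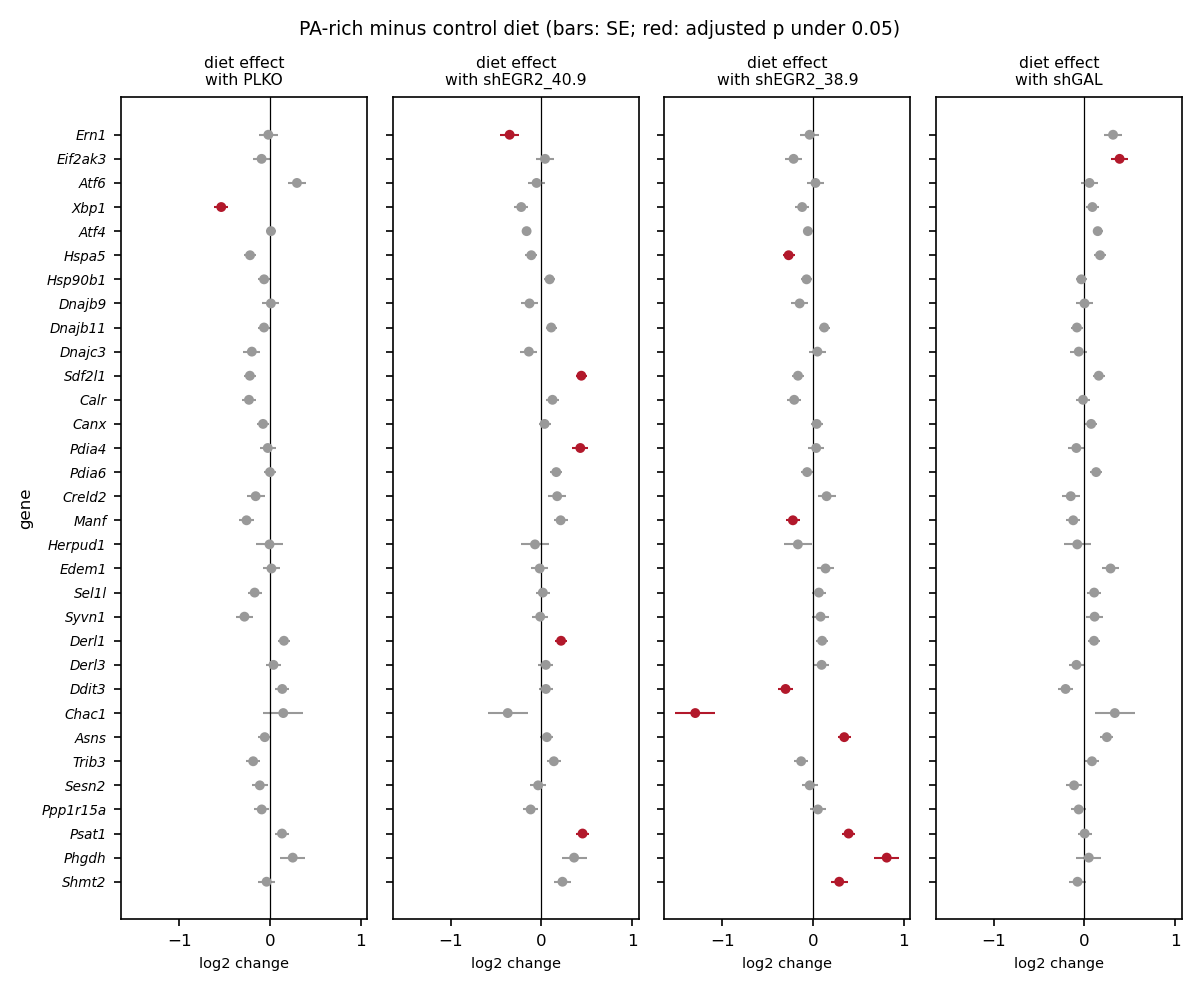
Change of each tested member with the PA-rich diet (log2, PA-rich minus control; bars are the SE of the model) under each of the 4 hairpins, with calls at an adjusted p under 0.05 in red. Chac1 with shEGR2_38.9 stands lowest at -1.30, and the only red point with PLKO is Xbp1.

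The hairpin comparison asks how the stroma of tumours with hairpins against EGR2 or GAL differed from that of PLKO tumours on the same diet. On the control diet, the mean of the 2 EGR2 hairpins had 3 members higher than PLKO (Chac1, Eif2ak3 and Atf6) and 6 lower (Asns, Psat1, Phgdh, Shmt2, Ppp1r15a and Syvn1), against 10.8% of all genes higher and 14.5% lower. On the PA-rich diet 2 were higher (Eif2ak3 and Sdf2l1) against 0.794%, and 0 were lower against 0.321%. At an unadjusted p under 0.05, 9 were higher and 3 lower, with no share of all genes counted at that threshold. On that diet shEGR2_40.9 alone had 3 members higher and shEGR2_38.9 alone had 0, and 0 were lower with either. With shGAL on the control diet 3 were higher (Eif2ak3, Atf6 and Sesn2) and 5 lower (Hspa5, Sdf2l1, Manf, Sel1l and Asns), against 7.15% and 9.84%. With shGAL on the PA-rich diet 4 were higher (Eif2ak3, Xbp1, Edem1 and Sesn2) and 2 lower (Ddit3 and Psat1), against 7.6% and 4.77%. These comparisons share the PLKO arrays. By role, for the EGR2 mean on the control diet 6 of 9 Atf4 targets and 1 of 18 folding and degradation genes were called. Their medians were -0.30 and -0.04, beside -0.061 over all genes. The hairpins differed in this: shEGR2_40.9 alone gave 3 of 9 and 3 of 18, and shEGR2_38.9 alone gave 7 of 9 and 2 of 18. The shares of all genes for 1 hairpin alone are not given here. That the branches differ was not tested.

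**Figure D3:**
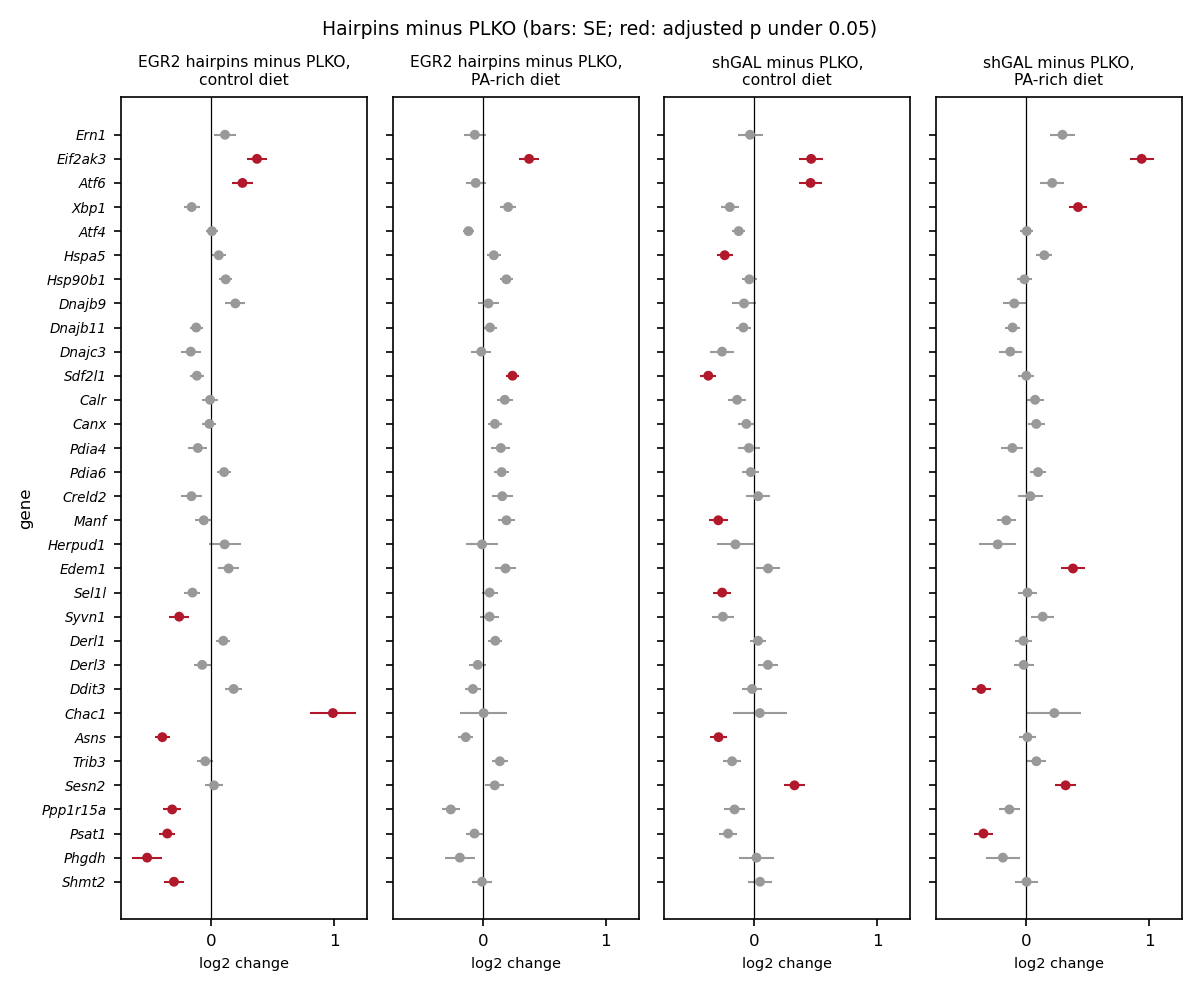
Change of each tested member against PLKO (log2; bars are the SE of the model) for the mean of the EGR2 hairpins and for shGAL on each diet, with calls at an adjusted p under 0.05 in red. The rise of Chac1 (0.99) and the falls of the amino acid enzymes with the EGR2 hairpins appear on the control diet, and Eif2ak3 lies right of 0 in all 4 panels.

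The difference between diet effects was tested as an interaction. Compared with PLKO, the diet effect was higher with the EGR2 hairpins for 2 members (Xbp1 and Sdf2l1) and lower for 1 (Chac1), against 5.18% and 4.57% of all genes. With shGAL it was higher for 3 (Xbp1, Hspa5 and Sdf2l1) against 1.01%, and lower for 0 against 0.321%, with 1 lower at an unadjusted p under 0.05. Without the third shEGR2_38.9 control array, the members called in either direction were 3 with PLKO (2.27% of all genes), 11 with shEGR2_40.9 (13.0%), 7 with shEGR2_38.9 (19.1%) and 2 with shGAL (4.46%) for the diet. They were 14 (28.1%) and 4 (2.17%) for the EGR2 hairpins on the control and PA-rich diets, 13 (23.6%) and 8 (17.7%) for shGAL on the same diets, and 8 (13.5%) and 4 (2.9%) for the 2 interactions. All but 2 of the 46 calls (Manf and Shmt2 for the diet with shEGR2_38.9) were also made without it.

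Xbp1, the transcription factor of the Ern1 branch, fell with the PA-rich diet in PLKO tumours and did not fall detectably with shGAL. Xbp1 read 9.59, 9.82 and 9.68 with PLKO, 9.54, 9.65 and 9.55 with shEGR2_40.9, 9.53, 9.51 and 9.45 with shEGR2_38.9 and 9.49, 9.39 and 9.61 with shGAL on the control diet. Xbp1 on the PA-rich diet read 9.22, 9.15 and 9.12 with PLKO, 9.24, 9.32 and 9.50 with shEGR2_40.9, 9.32, 9.40 and 9.41 with shEGR2_38.9 and 9.60, 9.62 and 9.54 with shGAL. With PLKO the 3 PA-rich arrays lay below all 21 others. The diet effect was -0.54 (SE 0.076, limma adjusted p = 0.000559) with PLKO, -0.37, -0.67 and -0.57 within the 3 scan batches, a fall to a level 1.45-fold lower. It was -0.22, -0.12 and 0.09 with shEGR2_40.9, shEGR2_38.9 and shGAL (adjusted p = 0.0714, 0.272 and 0.615). Without the third shEGR2_38.9 control array the fall with shEGR2_40.9 passed (-0.22, adjusted p = 0.0447), as did a lower level with shGAL than with PLKO on the control diet (-0.20, adjusted p = 0.0483). The diet effect with shGAL exceeded that with PLKO by 0.62 (SE 0.11, limma adjusted p = 0.00323), and that with the EGR2 hairpins exceeded it by 0.37 (SE 0.092, limma adjusted p = 0.0125), with 0.31 for shEGR2_40.9 and 0.42 for shEGR2_38.9 alone. Of these single hairpins shEGR2_38.9 passed an adjusted p of 0.05 and shEGR2_40.9 did not. On the PA-rich diet shGAL was above PLKO by 0.42 (SE 0.076, limma adjusted p = 0.000528), and by 0.42 within the scan batch they share. The other 3 probe sets of Xbp1 gave diet effects of -0.47, -0.46 and -0.63 with PLKO and shGAL differences of 0.54, 0.53 and 0.67 on the PA-rich diet. The call of the EGR2 interaction ended without the second PLKO control array (adjusted p = 0.0554).

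Eif2ak3, the kinase PERK, was lowest with PLKO and highest with shGAL. Eif2ak3 read 6.71, 7.19 and 6.81 with PLKO, 7.21, 7.29 and 7.19 with shEGR2_40.9, 7.18, 7.38 and 7.39 with shEGR2_38.9 and 7.31, 7.42 and 7.36 with shGAL on the control diet. Eif2ak3 on the PA-rich diet read 6.697, 6.82 and 6.92 with PLKO, 7.15, 7.38 and 7.28 with shEGR2_40.9, 7.06, 7.19 and 7.07 with shEGR2_38.9 and 7.73, 7.75 and 7.77 with shGAL. On the PA-rich diet every shGAL array was at or above 7.73 and every PLKO array at or below 6.92. The shGAL difference was 0.94 (SE 0.097, limma adjusted p = 6.59e-07) on that diet and 0.46 (SE 0.097, limma adjusted p = 0.00208) on the control diet, with 0.86 and 0.55 within the shared scan batch. For the EGR2 hairpins it was 0.37 (SE 0.084, limma adjusted p = 0.00229) on the control diet, where 1 PLKO array overlapped, and 0.38 (SE 0.084, limma adjusted p = 0.0249) on the PA-rich diet. On the PA-rich diet Eif2ak3 was above PLKO by 0.46 with shEGR2_40.9 and by 0.29 with shEGR2_38.9, which alone did not pass. The diet raised it with shGAL by 0.39 (SE 0.097, limma adjusted p = 0.0392); the interaction with PLKO gave 0.48 (adjusted p = 0.0953). The 2 other probe sets, both of lower mean level (6.32 and 5.92), gave -0.11 and 0.36 for shGAL on the PA-rich diet and -0.23 and -0.08 for the EGR2 hairpins on the control diet. With the mean of all probe sets the EGR2 calls and the diet call ended (adjusted p = 0.804, 0.0838 and 0.454) and the shGAL differences were 0.40 and 0.22. Without any 1 of 5 arrays the EGR2 call on the PA-rich diet ended, and without any 1 of 8 arrays the diet call with shGAL ended (adjusted p = 0.056 to 0.189 and 0.0504 to 0.156).

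Atf6, the membrane-bound factor, was low with PLKO on the control diet. Atf6 read 7.40, 7.78 and 7.59 with PLKO, 7.87, 7.85 and 7.87 with shEGR2_40.9, 7.82, 7.68 and 7.96 with shEGR2_38.9 and 8.24, 8.01 and 7.88 with shGAL on the control diet. Atf6 on the PA-rich diet read 7.91, 7.90 and 7.85 with PLKO, 7.78, 7.85 and 7.78 with shEGR2_40.9, 7.82, 7.80 and 7.92 with shEGR2_38.9 and 8.11, 8.22 and 7.97 with shGAL. The 3 PLKO control arrays were at or below 7.78 and the 3 shGAL control arrays at or above 7.88, a difference of 0.46 (SE 0.095, limma adjusted p = 0.00195) with 0.30 in the shared scan batch. For the EGR2 hairpins on the control diet the difference was 0.25 (SE 0.082, limma adjusted p = 0.0279), but 0.47 and -0.10 within the scan batches shared by PLKO with shEGR2_40.9 and shEGR2_38.9. That call ended with the scan batch as a block (0.16, adjusted p = 0.216), without the first PLKO control array (0.16, adjusted p = 0.22) and without the third (adjusted p = 0.0801). The second probe set of Atf6 gave 0.27 for shGAL and 0.30 for the EGR2 hairpins.

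Ern1, the kinase and ribonuclease IRE1α, fell with the PA-rich diet under shEGR2_40.9. Ern1 read 8.69, 8.65 and 8.70 with PLKO, 8.73, 8.85 and 8.66 with shEGR2_40.9, 8.74, 9.004 and 8.77 with shEGR2_38.9 and 8.63, 8.52 and 8.79 with shGAL on the control diet. Ern1 on the PA-rich diet read 8.64, 8.65 and 8.70 with PLKO, 8.28, 8.42 and 8.49 with shEGR2_40.9, 8.71, 8.79 and 8.89 with shEGR2_38.9 and 8.78, 8.86 and 9.24 with shGAL. The PA-rich arrays of shEGR2_40.9 were the 3 lowest of all 24. The diet effect there was -0.35 (SE 0.10, limma adjusted p = 0.0309). The other 4 probe sets gave -0.26, 0.12, -0.04 and 0.16; with the mean of all 5 the call ended (-0.08, adjusted p = 0.47). It also ended without the first or second control array or the first or second PA-rich array of that hairpin (adjusted p = 0.0695 to 0.159). Ern1 was higher with shGAL than with PLKO on the PA-rich diet when fitted without the third shEGR2_38.9 control array (0.30, adjusted p = 0.0459).

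Atf4 mRNA passed no test in the 10 comparisons. Atf4 read 11.52, 11.51 and 11.57 with PLKO, 11.63, 11.61 and 11.60 with shEGR2_40.9, 11.52, 11.47 and 11.40 with shEGR2_38.9 and 11.39, 11.41 and 11.42 with shGAL on the control diet. Atf4 on the PA-rich diet read 11.51, 11.56 and 11.57 with PLKO, 11.43, 11.50 and 11.42 with shEGR2_40.9, 11.43, 11.39 and 11.41 with shEGR2_38.9 and 11.53, 11.56 and 11.56 with shGAL. All group means of Atf4 lay within 0.21 of each other, and its level is known to be set mostly by translation. Without the third shEGR2_38.9 control array the diet effect with shEGR2_40.9 (-0.16, adjusted p = 0.0191) and the shGAL difference on the control diet (-0.13, adjusted p = 0.0445) passed.

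Among the ER folding genes, Sdf2l1, a cofactor of the chaperone Hspa5, changed in the most comparisons, 5 of 10, and rose with the PA-rich diet under shEGR2_40.9. Sdf2l1 read 9.22, 9.24 and 9.21 with PLKO, 8.91, 8.81 and 8.99 with shEGR2_40.9, 9.25, 9.30 and 9.37 with shEGR2_38.9 and 8.85, 8.83 and 8.86 with shGAL on the control diet. Sdf2l1 on the PA-rich diet read 8.94, 9.11 and 8.96 with PLKO, 9.35, 9.38 and 9.30 with shEGR2_40.9, 9.14, 9.15 and 9.14 with shEGR2_38.9 and 8.92, 9.01 and 9.08 with shGAL. With shEGR2_40.9 the 3 PA-rich arrays lay above the 3 control arrays and gave the highest group mean. The diet effect was 0.44 (SE 0.064, limma adjusted p = 6.48e-05) there and -0.17 (adjusted p = 0.0666) with shEGR2_38.9. Relative to the diet effect with PLKO, it was 0.66 higher with shEGR2_40.9 (adjusted p = 0.000185) and differed by 0.06 with shEGR2_38.9 (adjusted p = 0.76), so that the mean of both, 0.36 (SE 0.078, limma adjusted p = 0.0043), rests on shEGR2_40.9. With shGAL Sdf2l1 was lower than PLKO on the control diet by 0.38 (SE 0.064, limma adjusted p = 0.000317), and its diet effect exceeded that with PLKO by 0.38 (SE 0.09, limma adjusted p = 0.0349). On the PA-rich diet the EGR2 mean was above PLKO by 0.24 (SE 0.055, limma adjusted p = 0.0312), and by 0.40 and 0.04 within the scan batches that PLKO shares with shEGR2_40.9 and shEGR2_38.9. With the scan batch as a block that call ended (adjusted p = 0.092), as it did without any 1 of 8 arrays (adjusted p = 0.0513 to 0.202); the shGAL interaction ended without any 1 of 10 (adjusted p = 0.0504 to 0.115).

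Hspa5 (BiP), the major ER chaperone whose promoter is printed above, fell with the PA-rich diet under shEGR2_38.9. Hspa5 read 11.12, 11.08 and 11.05 with PLKO, 11.15, 11.20 and 11.13 with shEGR2_40.9, 11.06, 11.11 and 11.20 with shEGR2_38.9 and 10.83, 10.75 and 10.95 with shGAL on the control diet. Hspa5 on the PA-rich diet read 10.86, 10.90 and 10.84 with PLKO, 11.02, 11.08 and 11.05 with shEGR2_40.9, 10.95, 10.79 and 10.83 with shEGR2_38.9 and 11.01, 10.95 and 11.08 with shGAL. Its diet effect was -0.27 (SE 0.065, limma adjusted p = 0.00439) with shEGR2_38.9, against -0.22, -0.11 and 0.17 with PLKO, shEGR2_40.9 and shGAL (adjusted p = 0.123, 0.363 and 0.184). In a model of the 6 shEGR2_38.9 arrays alone the fall did not pass (adjusted p = 0.0913). Hspa5 was lower with shGAL than with PLKO on the control diet, -0.24 (SE 0.065, limma adjusted p = 0.0126), and the diet effect with shGAL exceeded that with PLKO by 0.39 (SE 0.092, limma adjusted p = 0.0331). Both shGAL calls ended with the scan batch as a block (adjusted p = 0.051 and 0.0551), the first also without the second shGAL control array (adjusted p = 0.0717) and the interaction without any 1 of 9 arrays (adjusted p = 0.0508 to 0.102). With only the arrays compared both ended as well (adjusted p = 0.089 and 0.073), and the interaction also with repeated quantile normalization (adjusted p = 0.0697). The other probe set of Hspa5 gave -0.08 for the diet with shEGR2_38.9, -0.19 for shGAL on the control diet and 0.23 for the interaction.

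Pdia4, an ER disulfide isomerase, and Manf, a secreted factor that binds Hspa5, were the other folding genes called. Pdia4 read 9.66, 9.73 and 9.71 with PLKO, 9.65, 9.27 and 9.47 with shEGR2_40.9, 9.74, 9.56 and 9.82 with shEGR2_38.9 and 9.62, 9.77 and 9.56 with shGAL on the control diet. Pdia4 on the PA-rich diet read 9.64, 9.69 and 9.69 with PLKO, 9.88, 9.87 and 9.93 with shEGR2_40.9, 9.69, 9.71 and 9.83 with shEGR2_38.9 and 9.54, 9.69 and 9.46 with shGAL. The 3 PA-rich arrays of shEGR2_40.9 were the highest of all 24, and the diet effect with that hairpin was 0.43 (SE 0.088, limma adjusted p = 0.00247). Manf read 10.70, 10.68 and 10.72 with PLKO, 10.46, 10.44 and 10.60 with shEGR2_40.9, 10.68, 10.66 and 10.99 with shEGR2_38.9 and 10.43, 10.47 and 10.32 with shGAL on the control diet. Manf on the PA-rich diet read 10.47, 10.48 and 10.38 with PLKO, 10.69, 10.71 and 10.74 with shEGR2_40.9, 10.52, 10.55 and 10.59 with shEGR2_38.9 and 10.35, 10.32 and 10.18 with shGAL. Manf was lower with shGAL than with PLKO on the control diet by 0.29 (SE 0.078, limma adjusted p = 0.0111), without overlap. The fall of Manf with diet under shEGR2_38.9, -0.22 (SE 0.078, limma adjusted p = 0.0442), rested on the third control array at 10.99: without it the change was -0.11 (adjusted p = 0.257), and leaving out any 1 of 14 arrays ended the call (adjusted p = 0.0502 to 0.257). Without that array Manf instead passed for the diet with PLKO (-0.26, adjusted p = 0.0195) and with shEGR2_40.9 (0.21, adjusted p = 0.0179), in opposite directions, for the EGR2 hairpins on the PA-rich diet (0.19, adjusted p = 0.0489) and for their interaction with PLKO (0.31, adjusted p = 0.0064).

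The other 8 tested folding genes passed no test in the 10 comparisons with all arrays: Hsp90b1 (GRP94), the J-domain cochaperones Dnajb9, Dnajb11 and Dnajc3, the lectin chaperones Calr and Canx, the isomerase Pdia6, and Creld2. Their group means spanned from 0.11 (Canx) to 0.40 (Dnajb9, highest with shEGR2_40.9 on the control diet at 11.28 ± 0.13, SD, n = 3, and lowest with shGAL on that diet at 10.88 ± 0.21). Of these 8, 4 passed a test without the third shEGR2_38.9 control array. Hsp90b1 was then higher with the EGR2 hairpins than with PLKO on both diets (0.15 and 0.19, adjusted p = 0.0208 and 0.0234), and Dnajb9 on the control diet (0.23, adjusted p = 0.0402). Dnajc3 was then lower with shGAL on the control diet (-0.26, adjusted p = 0.00848). Creld2 then rose with the diet under shEGR2_40.9 (0.17, adjusted p = 0.0291), and its EGR2 interaction with PLKO was 0.22 (adjusted p = 0.0239). With PLKO, 10 of the 12 tested folding genes had a negative diet effect with a median of -0.12, and 0 of 12 passed. At an unadjusted p under 0.05, 5 of them were lower, with no share of all genes counted at that threshold. Without the third shEGR2_38.9 control array Sdf2l1 (-0.22, adjusted p = 0.0457) and Manf passed. With shEGR2_40.9, 9 of 12 had a positive diet effect with a median of 0.12.

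**Figure D4:**
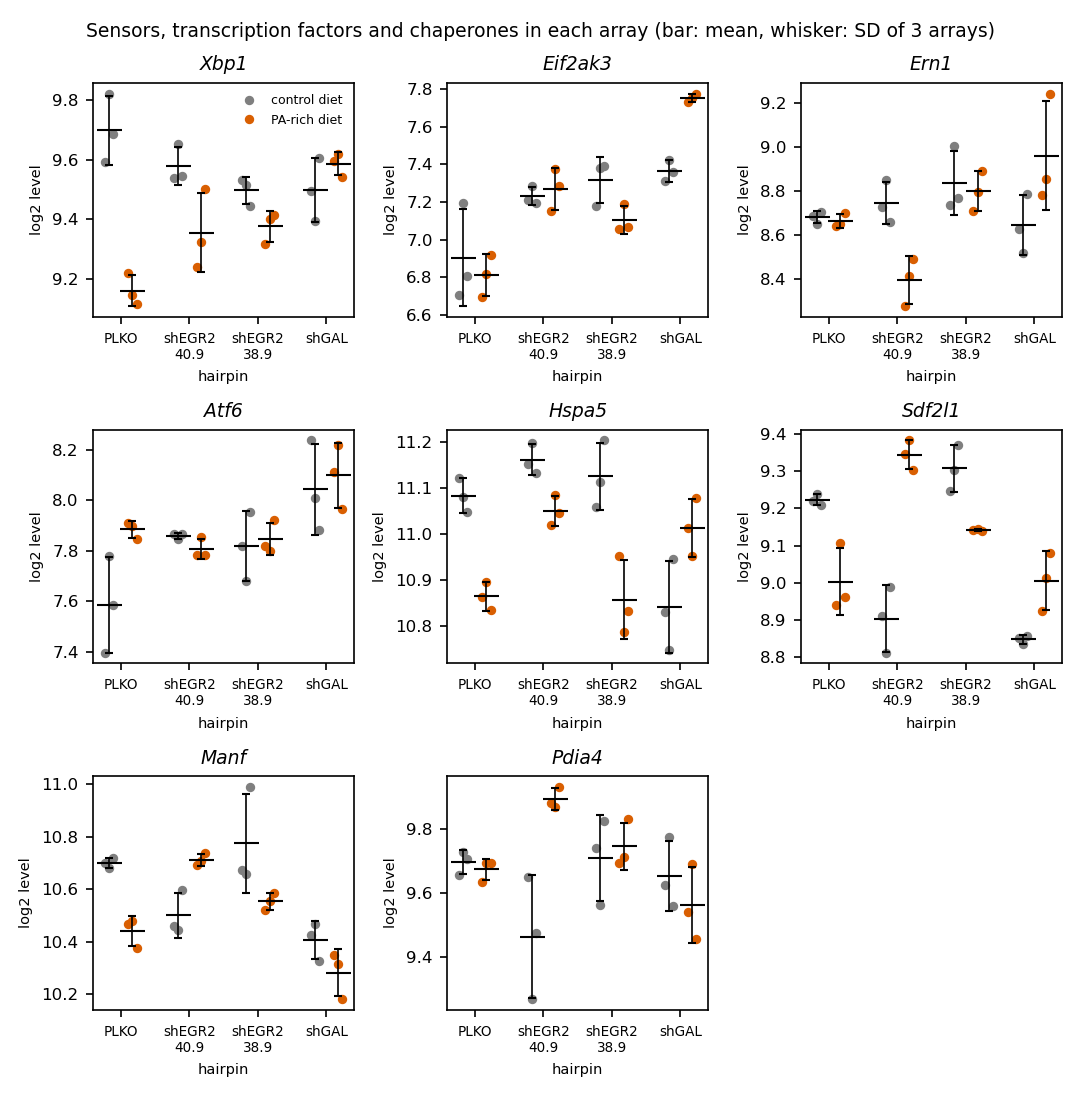
Log2 level of 4 sensors and transcription factors and 4 folding genes in each of the 24 arrays, by hairpin and diet; bars are group means and whiskers the SD of 3 arrays. Xbp1 separates by diet with PLKO, Eif2ak3 is highest with shGAL on the PA-rich diet, and Sdf2l1 and Pdia4 separate by diet with shEGR2_40.9.

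Of the 6 ER-associated degradation genes 4 passed at least 1 test, against 45.5% of all genes. Edem1, a lectin that hands misfolded glycoproteins to degradation, was higher with shGAL on the PA-rich diet. Edem1 read 8.79, 8.98 and 8.80 with PLKO, 8.96, 9.12 and 9.10 with shEGR2_40.9, 8.85, 8.79 and 9.15 with shEGR2_38.9 and 9.10, 8.72 and 9.08 with shGAL on the control diet. Edem1 on the PA-rich diet read 8.86, 8.94 and 8.82 with PLKO, 9.01, 9.07 and 9.05 with shEGR2_40.9, 9.10, 9.02 and 9.09 with shEGR2_38.9 and 9.17, 9.28 and 9.31 with shGAL. No PLKO array on that diet exceeded 8.94 and no shGAL array was under 9.17, a difference of 0.38 (SE 0.096, limma adjusted p = 0.01); the other probe set of Edem1 gave 0.15. Sel1l and Syvn1 form the core of the Hrd1 ubiquitin ligase. Sel1l read 9.30, 9.49 and 9.35 with PLKO, 9.17, 9.13 and 9.19 with shEGR2_40.9, 9.23, 9.16 and 9.45 with shEGR2_38.9 and 9.13, 9.01 and 9.20 with shGAL on the control diet. Sel1l on the PA-rich diet read 9.14, 9.24 and 9.25 with PLKO, 9.12, 9.25 and 9.17 with shEGR2_40.9, 9.31, 9.37 and 9.37 with shEGR2_38.9 and 9.22, 9.28 and 9.16 with shGAL. Sel1l was lower with shGAL on the control diet by 0.26 (SE 0.075, limma adjusted p = 0.0185), without overlap with PLKO. Syvn1 read 9.28, 9.43 and 9.51 with PLKO, 9.08, 9.10 and 9.20 with shEGR2_40.9, 9.13, 9.13 and 9.23 with shEGR2_38.9 and 9.09, 9.0 and 9.36 with shGAL on the control diet. Syvn1 on the PA-rich diet read 9.06, 9.19 and 9.12 with PLKO, 9.15, 9.05 and 9.14 with shEGR2_40.9, 9.24, 9.27 and 9.23 with shEGR2_38.9 and 9.08, 9.24 and 9.46 with shGAL. Syvn1 was highest with PLKO on the control diet, and the EGR2 hairpins lay below it by 0.26 (SE 0.079, limma adjusted p = 0.0182), again without overlap.
The Sel1l call ended with the mean of its 5 probe sets (adjusted p = 0.207) and without the second PLKO or second shGAL control array (adjusted p = 0.0948 to 0.105). The Syvn1 call ended with the scan batch as a block (adjusted p = 0.064) and without the second or the third PLKO control array (adjusted p = 0.0672 to 0.117). Without the third shEGR2_38.9 control array Sel1l was also lower under the EGR2 hairpins on the control diet (-0.20, adjusted p = 0.0115) with an interaction of 0.25 (adjusted p = 0.0345), and Syvn1 was also lower with shGAL on that diet (-0.26, adjusted p = 0.0424).

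Derl1, a channel subunit for retrotranslocation, rose with the diet under shEGR2_40.9. Derl1 read 10.08, 9.99 and 9.88 with PLKO, 10.05, 10.04 and 10.06 with shEGR2_40.9, 10.14, 10.20 and 9.99 with shEGR2_38.9 and 10.03, 9.99 and 10.02 with shGAL on the control diet. Derl1 on the PA-rich diet read 10.11, 10.16 and 10.15 with PLKO, 10.32, 10.21 and 10.27 with shEGR2_40.9, 10.19, 10.16 and 10.27 with shEGR2_38.9 and 10.05, 10.12 and 10.18 with shGAL. The 3 PA-rich arrays of shEGR2_40.9 lay above its 3 control arrays and the diet effect was 0.22 (SE 0.067, limma adjusted p = 0.0438). Of its 2 other probe sets 1 gave 0.01 and 1 gave -0.39; with the mean of the 3 the sign turned (-0.06, adjusted p = 0.773), and the call also ended with the scan batch as a block (adjusted p = 0.0632) and without any 1 of 15 arrays (adjusted p = 0.0501 to 0.176). Herpud1, a membrane scaffold of the degradation complex, and Derl3 passed no test with all arrays, with group means spanning 0.46 and 0.20. Herpud1 read 10.20, 10.25 and 9.33 with shEGR2_38.9 on the control diet; without the third of these its diet effect there was -0.47 (adjusted p = 0.000487). Its difference from PLKO was then 0.26 under the EGR2 hairpins on the control diet (adjusted p = 0.00885) and -0.23 with shGAL on the PA-rich diet (adjusted p = 0.0446).

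The Atf4 targets did not all move in 1 direction. Chac1, which degrades glutathione and is induced by Atf4 with Ddit3, was high with both EGR2 hairpins on the control diet. Chac1 read 7.68, 7.38 and 6.996 with PLKO, 8.07, 8.29 and 8.49 with shEGR2_40.9, 8.52, 8.75 and 7.91 with shEGR2_38.9 and 7.25, 7.44 and 7.49 with shGAL on the control diet. Chac1 on the PA-rich diet read 7.06, 8.005 and 7.43 with PLKO, 7.74, 8.10 and 7.90 with shEGR2_40.9, 6.98, 7.23 and 7.08 with shEGR2_38.9 and 7.43, 7.67 and 8.09 with shGAL. The 6 EGR2 arrays on the control diet (7.91 and above) did not overlap the 3 PLKO arrays (7.68 and below). The difference was 0.99 (SE 0.19, limma adjusted p = 0.000492), or 1.98-fold higher, with 0.93 for shEGR2_40.9 and 1.04 for shEGR2_38.9, and 0.40 and 1.38 within the scan batches shared with PLKO. The difference on the PA-rich diet was 0.01 (adjusted p = 0.996). The diet effect was -1.30 (SE 0.22, limma adjusted p = 0.000129) with shEGR2_38.9, 2.46-fold lower, and -1.54, -1.52 and -0.83 within its 3 scan batches. It was -0.37 with shEGR2_40.9 (adjusted p = 0.366) and 0.15 with PLKO (adjusted p = 0.871). The interaction of the EGR2 mean with PLKO was -0.98 (SE 0.27, limma adjusted p = 0.0208), made up of -0.52 for shEGR2_40.9 (adjusted p = 0.442) and -1.45 for shEGR2_38.9 (adjusted p = 0.00272). It ended without the third PLKO control array or the second PLKO PA-rich array (adjusted p = 0.0859 and 0.0896).

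Asns, Psat1, Phgdh and Shmt2 make asparagine, serine and one-carbon units, and were grouped after their values were seen, so that their common direction is a description. All 4 were lower with the mean of the EGR2 hairpins than with PLKO on the control diet, and all 4 rose with the PA-rich diet under shEGR2_38.9. In the first comparison all 4 changes were negative with each hairpin alone. With shEGR2_40.9 alone (-0.31 to -0.27) 2 of the 4 passed, and with shEGR2_38.9 alone (-0.74 to -0.33), whose group holds the array that stood apart, 4 passed. Asns read 10.06, 10.17 and 10.002 with PLKO, 9.77, 9.89 and 9.76 with shEGR2_40.9, 9.54, 9.61 and 9.48 with shEGR2_38.9 and 9.78, 9.66 and 9.90 with shGAL on the control diet. Asns on the PA-rich diet read 9.95, 10.10 and 10.01 with PLKO, 9.88, 9.88 and 9.85 with shEGR2_40.9, 9.82, 9.93 and 9.92 with shEGR2_38.9 and 9.99, 10.01 and 10.09 with shGAL. Asns, which makes asparagine, was lower than PLKO in all 6 EGR2 control arrays, by 0.40 (SE 0.061, limma adjusted p = 4.06e-05), with -0.29 and -0.56 within the shared scan batches. It rose with the diet under shEGR2_38.9 by 0.35 (SE 0.07, limma adjusted p = 0.000938), without overlap, and was also lower with shGAL than with PLKO on the control diet, -0.29 (SE 0.07, limma adjusted p = 0.00602), which did not pass in a model of the PLKO and shGAL control arrays alone (adjusted p = 0.0714). Its rise with the diet under shGAL passed without the third shEGR2_38.9 control array (0.25, adjusted p = 0.0346).

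Psat1, the second enzyme of serine synthesis, rose with the diet under both EGR2 hairpins. Psat1 read 10.93, 11.04 and 10.96 with PLKO, 10.77, 10.51 and 10.72 with shEGR2_40.9, 10.60, 10.65 and 10.47 with shEGR2_38.9 and 10.86, 10.66 and 10.77 with shGAL on the control diet. Psat1 on the PA-rich diet read 11.18, 11.12 and 11.04 with PLKO, 11.10, 11.13 and 11.13 with shEGR2_40.9, 11.02, 10.90 and 10.99 with shEGR2_38.9 and 10.74, 10.85 and 10.70 with shGAL. With either EGR2 hairpin the 3 control arrays lay below the 3 PA-rich arrays. The diet effect was 0.45 (SE 0.076, limma adjusted p = 0.000301) with shEGR2_40.9 and 0.39 (SE 0.076, limma adjusted p = 0.000543) with shEGR2_38.9, against 0.13 with PLKO (adjusted p = 0.552) and 0.00 with shGAL (adjusted p = 0.993). The EGR2 mean was lower than PLKO on the control diet, -0.36 (SE 0.066, limma adjusted p = 0.000311), and -0.07 (adjusted p = 0.748) on the PA-rich diet. With shGAL Psat1 was lower than PLKO on the PA-rich diet by 0.35 (SE 0.076, limma adjusted p = 0.00346), and without the third shEGR2_38.9 control array also on the control diet (-0.21, adjusted p = 0.0299).

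Phgdh, the first enzyme of serine synthesis, had the widest range of the 4. Phgdh read 9.68, 10.05 and 9.92 with PLKO, 9.42, 9.56 and 9.76 with shEGR2_40.9, 9.38, 9.39 and 8.65 with shEGR2_38.9 and 10.05, 9.92 and 9.73 with shGAL on the control diet. Phgdh on the PA-rich diet read 10.09, 10.19 and 10.13 with PLKO, 9.93, 10.004 and 9.89 with shEGR2_40.9, 9.94, 9.99 and 9.93 with shEGR2_38.9 and 9.88, 9.92 and 10.04 with shGAL. The third shEGR2_38.9 control array, which stood apart, was the lowest of all 24. The diet effect with shEGR2_38.9 was 0.81 (SE 0.14, limma adjusted p = 0.000149), and 0.57 (adjusted p = 0.000333) without that array. The EGR2 mean was below PLKO on the control diet by 0.52 (SE 0.12, limma adjusted p = 0.00257) with it and changed by -0.40 (adjusted p = 0.00102) without it; 1 shEGR2_40.9 array at 9.76 overlapped PLKO. With shEGR2_40.9 the diet effect was 0.36 (adjusted p = 0.12), which passed without the array (adjusted p = 0.0112). The other probe set of Phgdh gave 0.52 for the diet with shEGR2_38.9 and -0.48 for the EGR2 mean.

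Shmt2, the mitochondrial serine hydroxymethyltransferase, moved the same way with smaller values. Shmt2 read 9.35, 9.21 and 9.23 with PLKO, 9.04, 8.95 and 8.96 with shEGR2_40.9, 9.11, 9.05 and 8.62 with shEGR2_38.9 and 9.29, 9.40 and 9.23 with shGAL on the control diet. Shmt2 on the PA-rich diet read 9.13, 9.26 and 9.29 with PLKO, 9.33, 9.15 and 9.17 with shEGR2_40.9, 9.18, 9.25 and 9.22 with shEGR2_38.9 and 9.18, 9.26 and 9.24 with shGAL. The EGR2 hairpins lay below PLKO on the control diet, -0.30 (SE 0.081, limma adjusted p = 0.00796), and no array overlapped. The diet effect with shEGR2_38.9, 0.29 (SE 0.094, limma adjusted p = 0.0282), rested on the control array at 8.62: without it the value was 0.14 (adjusted p = 0.202), while the effect with shEGR2_40.9 then passed (0.23, adjusted p = 0.0172), and the call also ended without any 1 of the 3 PA-rich arrays of that hairpin (adjusted p = 0.0517, 0.0859 and 0.073). The EGR2 call ended with the scan batch as a block (adjusted p = 0.06) and without the first PLKO control array (adjusted p = 0.0517).

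As a group of 4, these enzymes had group levels (relative to the 24-array mean, log2, ± SD, n = 3) of 0.12 ± 0.060 with PLKO, -0.17 ± 0.036 with shEGR2_40.9, -0.38 ± 0.21 with shEGR2_38.9 and 0.0066 ± 0.049 with shGAL on the control diet. On the PA-rich diet they were 0.19 ± 0.039, 0.10 ± 0.024, 0.076 ± 0.013 and 0.062 ± 0.037 in that order. The 3 shEGR2_38.9 control arrays read -0.27, -0.25 and -0.62, the last being the array that stood apart. The spread between hairpins was thus smaller on the PA-rich diet. On that diet 0 of the 4 differed from PLKO with the EGR2 hairpins at an adjusted p under 0.05 by limma, and 1 (Asns) was lower at an unadjusted p under 0.05. In a limma model of only the arrays compared Phgdh was lower there (-0.19, adjusted p = 0.0392). The interaction values for the EGR2 mean were 0.26 for Asns, 0.29 for Psat1, 0.33 for Phgdh and 0.30 for Shmt2, with adjusted p = 0.0594, 0.0503, 0.251 and 0.108, so that with all arrays none of the 4 passed for the EGR2 mean. Without the third shEGR2_38.9 control array Psat1 passed (0.26, adjusted p = 0.0476). For shEGR2_38.9 alone Asns passed, 0.40 (SE 0.099, limma adjusted p = 0.00876), against 0.12 (adjusted p = 0.656) for shEGR2_40.9.

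**Figure D5:**
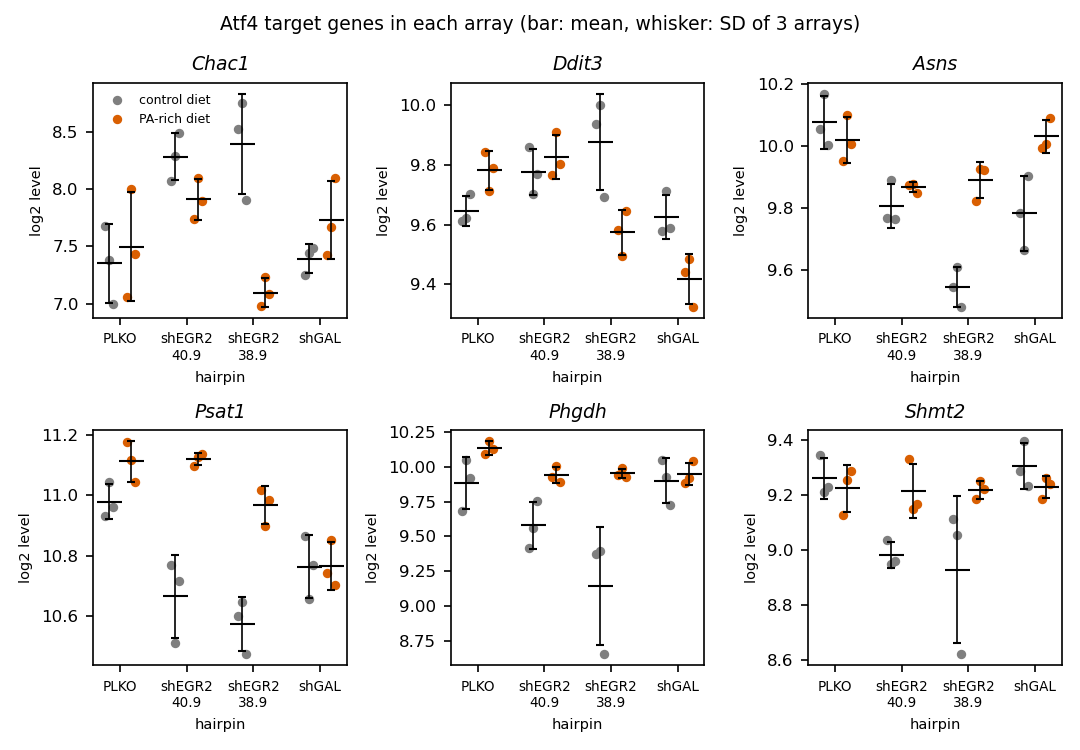
Log2 level of 6 Atf4 targets in each of the 24 arrays, by hairpin and diet; bars are group means and whiskers the SD of 3 arrays. Under the EGR2 hairpins on the control diet Chac1 is high while Asns, Psat1, Phgdh and Shmt2 are low, and with shEGR2_38.9 on the PA-rich diet Chac1 is low and the 4 enzymes are higher.

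Among the stress-end targets, Ddit3 (CHOP), the transcription factor of prolonged stress, fell with the diet under shEGR2_38.9. Ddit3 read 9.61, 9.62 and 9.70 with PLKO, 9.86, 9.70 and 9.77 with shEGR2_40.9, 9.94, 9.998 and 9.69 with shEGR2_38.9 and 9.58, 9.71 and 9.59 with shGAL on the control diet. Ddit3 on the PA-rich diet read 9.84, 9.71 and 9.79 with PLKO, 9.77, 9.91 and 9.80 with shEGR2_40.9, 9.58, 9.49 and 9.64 with shEGR2_38.9 and 9.44, 9.48 and 9.32 with shGAL. The diet effect was -0.30 (SE 0.078, limma adjusted p = 0.00713), with -0.35, -0.50 and -0.048 within its scan batches; in a model of those 6 arrays alone it did not pass (adjusted p = 0.106). With shGAL Ddit3 lay below PLKO on the PA-rich diet without overlap, -0.36 (SE 0.078, limma adjusted p = 0.00289). For the EGR2 mean on the control diet the difference from PLKO was 0.18 (adjusted p = 0.0533), and 0.23 (adjusted p = 0.00556) without the third shEGR2_38.9 control array. The interactions with PLKO then also passed, at -0.31 for the EGR2 hairpins and -0.35 for shGAL (adjusted p = 0.0125 and 0.0437). Trib3, a pseudokinase induced by Ddit3, passed no test and its group means spanned 0.26.

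Ppp1r15a (GADD34) directs the phosphatase that reverses eIF2α phosphorylation. Ppp1r15a read 11.23, 11.12 and 11.26 with PLKO, 10.86, 11.10 and 11.03 with shEGR2_40.9, 10.78, 10.77 and 10.77 with shEGR2_38.9 and 10.99, 11.28 and 10.85 with shGAL on the control diet. Ppp1r15a on the PA-rich diet read 11.16, 11.07 and 11.11 with PLKO, 10.93, 10.87 and 10.83 with shEGR2_40.9, 10.86, 10.85 and 10.78 with shEGR2_38.9 and 11.05, 10.96 and 10.92 with shGAL. It was lower with the EGR2 hairpins than with PLKO on the control diet by 0.32 (SE 0.073, limma adjusted p = 0.00261), without overlap, and -0.26 (adjusted p = 0.102) on the PA-rich diet. Sesn2, which restrains growth signalling when amino acids are short, was higher with shGAL. Sesn2 read 9.002, 8.90 and 8.78 with PLKO, 8.99, 8.86 and 9.01 with shEGR2_40.9, 8.94, 8.80 and 8.89 with shEGR2_38.9 and 9.23, 9.36 and 9.07 with shGAL on the control diet. Sesn2 on the PA-rich diet read 8.75, 8.69 and 8.90 with PLKO, 8.81, 8.99 and 8.96 with shEGR2_40.9, 8.77, 8.77 and 8.98 with shEGR2_38.9 and 9.04, 9.12 and 9.15 with shGAL. The shGAL difference was 0.33 (SE 0.087, limma adjusted p = 0.0118) on the control diet and 0.32 (SE 0.087, limma adjusted p = 0.0163) on the PA-rich diet, and the second probe set of Sesn2 gave 0.48 and 0.38. Both calls ended with the scan batch as a block (adjusted p = 0.057 and 0.0689). The first ended without the third PLKO or second shGAL control array (adjusted p = 0.0733 to 0.0755), and the second without the first or second PLKO or the second or the third shGAL PA-rich array (adjusted p = 0.0551 to 0.0848).

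Markers of other cell types moved in the same comparisons as the Atf4 targets. The counts below stand beside these shares of all genes. Under the EGR2 hairpins on the control diet 10.8% were higher and 14.5% lower. With the PA-rich diet 3.73% rose and 5.22% fell under shEGR2_40.9, and 13.8% rose and 8.3% fell under shEGR2_38.9. With shGAL 7.15% were higher and 9.84% lower than PLKO on the control diet, and 7.6% and 4.77% on the PA-rich diet. Of 15 endothelial markers 14 were higher under the EGR2 hairpins on the control diet (median 1.38), and 14 fell with the PA-rich diet under each EGR2 hairpin (medians -1.24 and -1.55). Their mean log2 level per array ran from 8.14 to 8.50 with PLKO, 9.25 to 9.58 with shEGR2_40.9 and 9.46 to 10.1 with shEGR2_38.9 on the control diet, and from 7.96 to 8.23, 7.98 to 8.23 and 8.39 to 8.60 on the PA-rich diet. For shGAL the ranges were 7.90 to 8.49 and 8.05 to 8.49. Of 4 measurable macrophage markers 3 rose, and of 7 pericyte and smooth muscle markers 4 rose, under the EGR2 hairpins on the control diet; Adgre1, Lyz2, C1qa and Itgam were dim. With the PA-rich diet 3 of the macrophage and 3 of the pericyte markers fell under shEGR2_38.9, and 2 of the macrophage and 0 of the pericyte markers under shEGR2_40.9; 2 of the pericyte markers were lower with shGAL than with PLKO on each diet. Of 7 fibroblast markers 3 were above the floor (Dcn, Col1a1 and Col3a1), and Pdgfra, Lum, Dpt and Pi16 were dim; of the 3, 1 was higher and 1 lower under the EGR2 hairpins on the control diet, 1 fell with the diet under shEGR2_40.9 and 1 rose under shEGR2_38.9. Of 14 keratinocyte markers 4 were lower under the EGR2 hairpins on the control diet and 5 rose with the diet under shEGR2_38.9, and their mean level was 10.7 to 11.0 with shEGR2_38.9 on the control diet against 11.2 to 11.6 in the other 7 groups. The 5 Schwann cell markers had a mean level of 8.95 to 9.19 in all 24 arrays, but single markers moved. Of the 5, 1 was higher and 1 lower under the EGR2 hairpins on the control diet, and 1 rose with the diet under each EGR2 hairpin. With shGAL 1 was higher on the control diet, and 1 was higher and 1 lower on the PA-rich diet. Of 4 neuron markers 1 fell with the diet under PLKO, against 0.811% of all genes, and 1 was lower under the EGR2 hairpins on the control diet. On the PA-rich diet 1 was higher under the EGR2 hairpins, against 0.794%, and 1 with shGAL. With shGAL on the control diet 1 endothelial marker was higher and 3 lower, and 1 macrophage marker was higher and 2 lower. On the PA-rich diet 1 endothelial marker was higher with shGAL. Of 3 kept secretory acinar and plasma cell markers 1 was higher with shGAL on each diet. Of the keratinocyte markers 1 was lower with shGAL on each diet, and 1 higher on the PA-rich diet. In these bulk samples fewer cells of a type and less RNA per cell cannot be told apart, and the part of these cell types in the changes of the members in these comparisons was not tested.

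Genes of the same pathways outside the 34 were read from 5 further lists. Of 25 kept Atf4 targets on the list 2 were higher and 4 lower under the EGR2 hairpins on the control diet, against 10.8% and 14.5% of all genes, and 5 rose and 2 fell with the diet under shEGR2_38.9, against 13.8% and 8.3%. All of these counts lay near those shares, the 5 rises a little above. Slc7a5, the leucine transporter, fell with the diet under PLKO (-0.53, limma adjusted p = 0.00054) and was lower than PLKO on the control diet with the EGR2 hairpins (-0.70, adjusted p = 4.29e-08) and shGAL (-0.67, adjusted p = 1.69e-06). Its diet effect exceeded that with PLKO by 0.70 with the EGR2 hairpins and 0.48 with shGAL. Psph, the last enzyme of serine synthesis, rose with the diet under shEGR2_38.9 by 0.39, with the folate enzyme Aldh1l2 (0.52) and the transaminase Gpt2 (0.43), while Ddit4, an inhibitor of mTORC1, fell (-0.43). Mthfd1l, a mitochondrial folate enzyme, was lower under the EGR2 hairpins on the control diet (-0.33) with Slc6a9, a glycine transporter (-0.37), and Ddit4 was higher (0.41).

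Of 15 other sensors and regulators, 2 were higher and 2 lower under the EGR2 hairpins on the control diet, near the 10.8% and 14.5% of all genes. Nupr1, a stress-induced chromatin regulator, was higher by 0.96 (SE 0.12, limma adjusted p = 2.75e-06) and fell with the diet under shEGR2_40.9 (-1.28) and shEGR2_38.9 (-1.03). Creb3l2, an ER-resident factor related to Atf6, did likewise (0.91, -0.53 and -0.89). Atf5, which is translated under eIF2α phosphorylation like Atf4, changed the other way (-0.25, 0.43 and 0.29). Mbtps1 and Mbtps2, the proteases that cleave Atf6, were lower with shGAL on the control diet (-0.70 and -0.53), and Mbtps1 also on the PA-rich diet (-0.67).

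Of 19 kept ER folding and degradation genes outside the members, 3 were higher under the EGR2 hairpins on the control diet, against 10.8% of all genes, led by Wfs1 (0.49) and the ER oxidase Ero1b (0.44), and 3 with shGAL on the PA-rich diet, against 7.6% (Edem3, Hspa13 and Ero1a, 0.43, 0.40 and 0.33). Of 19 translocation and transport genes 4 were lower with shGAL on the control diet, against 9.84%, among them the translocon subunit Sec61b (-0.40) and the signal peptidase subunit Spcs3 (-0.32). Of 10 cytosolic heat shock genes 2 were higher (Hsph1, 0.31, and Bag3, 0.26) and 3 lower (among them Hspa1b, -0.31, and Hspe1, -0.24) under the EGR2 hairpins on the control diet, against 10.8% and 14.5% of all genes, and 3 were higher with shGAL on the PA-rich diet, against 7.6%.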

How the data were processed

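RNA from 24 samples was hybridised to Affymetrix mouse arrays. The authors deposited log2 values; per the submitters' processing notes these come from RMA in affy (version not given in the sources used here). RMA corrects background, equalises the distribution of values between arrays and summarises each probe set, and could thereby compress changes. Of 45141 probe sets 28898 named 1 gene. Genes were left out as dim when their probe set mean fell under 6.27, the 40th percentile. Arrays have no count depth, and their number limits the precision.

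Groups were compared with limma 3.58.1 in R 4.3.3, in 1 model of 8 group means (16 residual degrees of freedom), two-sided, with Benjamini-Hochberg adjustment over 11844 genes in each of 10 comparisons. The procedure was tested on simulated data. Scan batch goes one to one with replicate number within a hairpin, per the labels, so that equal numbers share a batch; residuals of same-number arrays correlated from -0.03 to 0.24, above 0.1 in 7 of 12 cases. Scan batch was tried as a block, beside 6 other alternatives and the omission of each array.

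The members, roles and lists were chosen with earlier results of these data known. By rule, values in every array are given for the sensors and transcription factors and for members past the threshold in at least 1 comparison with the same sign in all 3 replicate numbers, and from each other list at most the 4 largest calls per comparison are named. Promoter sequences are from RefSeq.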

Additional observations from a re-analysis of the deposited data

Results flagged for a closer look

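For 3 genes the diet effect differed between the EGR2 hairpins and PLKO by the limma test of the difference itself. Xbp1 had a difference of 0.37 (SE 0.092, adjusted p = 0.0125), positive in 3 of 3 replicate numbers. The fall seen with PLKO was smaller with the mean of the EGR2 hairpins. The difference was 0.31 for shEGR2_40.9, which alone did not pass, and 0.42 for shEGR2_38.9, which did. The call of the mean ended without the second PLKO control array (adjusted p = 0.0554). Sdf2l1 had one of 0.36 (SE 0.078, adjusted p = 0.0043), also positive in 3 of 3, made up of 0.66 for shEGR2_40.9 (adjusted p = 0.000185) and 0.06 for shEGR2_38.9 (adjusted p = 0.76). Chac1 had one of -0.98 (SE 0.27, adjusted p = 0.0208), negative in 3 of 3, made up of -0.52 for shEGR2_40.9 (adjusted p = 0.442) and -1.45 for shEGR2_38.9 (adjusted p = 0.00272).

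For 3 genes the diet effect differed between shGAL and PLKO by the same test: Xbp1 by 0.62 (SE 0.11, adjusted p = 0.00323), Hspa5 by 0.39 (SE 0.092, adjusted p = 0.0331) and Sdf2l1 by 0.38 (SE 0.09, adjusted p = 0.0349), each positive in 3 of 3 replicate numbers. The Hspa5 difference did not pass with the scan batch as a block (adjusted p = 0.0551) or without any 1 of 9 arrays (adjusted p = 0.0508 to 0.102), and that of Sdf2l1 did not without any 1 of 10 (adjusted p = 0.0504 to 0.115). With only the arrays compared neither Hspa5 nor Sdf2l1 passed (adjusted p = 0.073 and 0.0772), and neither did with repeated quantile normalization (adjusted p = 0.0697 and 0.12). The EGR2 and shGAL differences use the same PLKO arrays, so that the results for Xbp1 and Sdf2l1 are not independent of each other.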

How the results depend on the processing

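Of 46 calls, 24 were kept under all 7 alternatives that could be computed and without each of the 24 arrays; no filter, a stricter filter and trend and robust settings ended none. With the scan batch as a replicate block 9 calls ended, and the 2 calls for the EGR2 hairpins on the PA-rich diet became 1. With only the arrays compared, which leaves fewer arrays to estimate the spread, 14 ended: 8 members became 4 for the diet with shEGR2_38.9 and for shGAL on the control diet, 1 became 0 for the diet with shGAL, 3 became 1 for the shGAL interaction, and 2 became 7 for the EGR2 hairpins on the PA-rich diet. Repeated quantile normalization ended 5, giving 0 for the diet with shGAL, 1 for the EGR2 hairpins on the PA-rich diet and 1 for the shGAL interaction. The stricter filter, which drops Eif2ak3, gave 0 and 1 for the same first 2 comparisons. The mean of all probe sets ended 5 calls, turned Derl1 for the diet with shEGR2_40.9 to -0.0554 (adjusted p = 0.773), gave 1 for the EGR2 hairpins on the PA-rich diet, and raised the EGR2 interaction from 3 to 8 members, with Atf6, Syvn1, Asns, Psat1 and Shmt2 added. Where no cause is named, the cause was not tested. Leaving out each array gave, for the diet, 1 to 3 members with PLKO, 3 to 11 with shEGR2_40.9, 6 to 11 with shEGR2_38.9 and 0 to 2 with shGAL; for the hairpins 7 to 14 and 0 to 4 (EGR2) and 6 to 13 and 5 to 8 (shGAL) on the control and PA-rich diets; and 2 to 8 and 1 to 4 for the interactions. The replicate block ended no call beside those 9.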
